A study of Mus musculus with 14 samples.

Results

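A group of 10 genes of arginine, tryptophan and itaconate metabolism in immune cells (Nos2, Arg1, Arg2, Ass1, Ido1, Ido2, Kynu, Il4i1, Acod1 and Slc7a2) was examined in bulk RNA-seq of 14 CT26 tumors. They form a group by their known functions, and the choice was made with earlier results of these data known. All 10 were found among the 53801 genes with values, and all 10 were among the 16287 genes that passed the filter on low counts and were tested.

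CT26 is a mouse colon carcinoma line of BALBc origin, and here its cells carried ClonTracer barcodes and grew under the skin of both flanks of wild-type, young adult female BALBc mice. The groups were 5 tumors of 4 mice given control IgG (clone 2A3), 5 tumors of 4 mice given anti-PD-1 (clone 1A12) and classed as responders, and 4 tumors of 3 mice given anti-PD-1 and classed as non-responders. All 3 groups shared the barcoded cells, the host strain and the injection schedule. Response was an outcome read from tumor size at the end of treatment, so that responders and non-responders differed in size by definition. Tumors are named by mouse number and flank (L or R), and 3 of the 11 mice gave both tumors, namely 14L and 14R (control IgG), 30L and 30R (responders), and 33L and 33R (non-responders). P-values treat tumors of 1 mouse as separate samples. The epithelial keratin gene Krt18 was at 7.75 to 15.9 CPM (counts scaled to a TMM-normalized library of fixed size) and Epcam at 0.554 to 5.33 CPM, whereas the intestinal genes Cdx2 and Vil1 did not exceed 0.68 and 0.174 CPM in any tumor.

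Library totals were between 33237744 and 48481461 expected counts. The non-responder 33R stood apart, with a slope of log2 expression on gene length of −0.232 against −0.0712 to 0.0598 in the other tumors. Values without 33R are therefore given for each gene of the group in responders against non-responders. The calls and values of the pathway and marker lists and the correlations, given further below, include 33R. Its part in them was not tested. RNA came from whole tumors, and in such samples fewer cells of a type and less RNA per cell cannot be told apart.

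Arginine and tryptophan are consumed by several enzymes that immune cells induce. Inducible nitric oxide synthase, encoded by Nos2, and the arginases Arg1 and Arg2 draw on the same arginine, which cationic transporters such as Slc7a2 bring into the cell. The indoleamine dioxygenases (Ido1 and Ido2) open the tryptophan ring to start the kynurenine pathway, and Il4i1, a secreted amino acid oxidase, acts on aromatic amino acids including phenylalanine and tryptophan. Interferon-gamma is the classical inducer of Ido1 and, with microbial signals, of Nos2 and Acod1, whereas IL-4 and IL-13 acting through STAT6 are classical inducers of Arg1 in macrophages.

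The genes lie on 7 chromosomes of mm10. Ido1 (chr8:24584136-24597009) and Ido2 (chr8:24531892-24576333) are neighbors on the minus strand, 7802 bases apart, and Slc7a2 is on the same chromosome (chr8:40862396-40922308, plus strand). Nos2 lies at chr11:78920787-78960254 (plus strand), Arg1 at chr10:24915221-24927484 (minus strand), Arg2 at chr12:79130777-79156301, Ass1 at chr2:31470207-31520672, Kynu at chr2:43555329-43682715, Il4i1 at chr7:44816387-44840809 and Acod1 at chr14:103046977-103056573 (these last 5 on the plus strand). Il4i1 lies across Nup62 on the same strand, a nucleoporin gene with a median of 89.4 CPM, and overlaps Tbc1d17 and Atf5 on the opposite strand. Arg2 overlaps Vti1b and Gm48780, and Slc7a2 overlaps Gm26584, all on the opposite strand. Whether counting used strand was not given in the sources used here, so the counts of Il4i1 and Arg2 could hold reads of their neighbors. Atf5 had a median of 487 CPM, Vti1b of 79.5 and Tbc1d17 of 34.3, whereas Gm26584 had a median of 0. The expected counts of Nos2, Arg1, Ido1, Ido2, Kynu, Acod1 and Slc7a2 were whole numbers (within 0.005) in all 14 tumors, as they are where no read is divided between genes. Those of Ass1 and Il4i1 were whole in 0 tumors and those of Arg2 in 3, and the levels of these genes are less certain for that reason.

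RefSeq promoter sequences (GRCm38.p6, 250 bases before to 50 after the start) were matched for 3 of the 10 genes. These are shown because no sequence was matched for the other members, and so that the elements bound by interferon-activated factors can be looked for. Acod1 and Il4i1 were higher in responders than in control IgG tumors, as were Ido1, Ido2, Slc7a2 and Nos2, which have no sequence here. Ass1 tracked interferon-induced genes across tumors (given with the most similar genes). Capitals mark matches to any motif searched.
Acod1, chr14:103046762-103047061, plus strand: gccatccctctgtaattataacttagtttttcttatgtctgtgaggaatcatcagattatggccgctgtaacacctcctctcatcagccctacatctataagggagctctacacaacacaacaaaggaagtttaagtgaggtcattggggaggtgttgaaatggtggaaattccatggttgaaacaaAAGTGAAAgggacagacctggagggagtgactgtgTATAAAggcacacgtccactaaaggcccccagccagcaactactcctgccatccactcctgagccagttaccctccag
Il4i1, chr7:44836038-44836337, plus strand: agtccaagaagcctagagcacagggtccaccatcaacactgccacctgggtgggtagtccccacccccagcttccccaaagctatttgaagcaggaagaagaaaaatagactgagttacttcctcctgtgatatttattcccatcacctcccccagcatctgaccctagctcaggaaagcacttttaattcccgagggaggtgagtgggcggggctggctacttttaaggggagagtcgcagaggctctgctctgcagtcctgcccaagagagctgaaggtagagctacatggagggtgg
Ass1, chr2:31470020-31470319, plus strand: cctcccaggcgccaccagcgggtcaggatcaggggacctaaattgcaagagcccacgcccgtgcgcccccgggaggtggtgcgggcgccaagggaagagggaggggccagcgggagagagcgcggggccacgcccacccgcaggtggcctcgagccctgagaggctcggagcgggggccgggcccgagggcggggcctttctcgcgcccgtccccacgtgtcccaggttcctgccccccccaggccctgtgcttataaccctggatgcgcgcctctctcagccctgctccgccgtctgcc
Both strands were searched for the gamma-activated site TTCNNNGAA, the interferon-stimulated response element GAAANNGAAA, its IRF core AANNGAAA (which every interferon-stimulated response element contains), the NF-kB consensus, and the TATA box TATAAA. The IRF core and the TATA box were added after the sequences had been seen. Acod1 held AAGTGAAA from position −63 and TATAAA from position −28 relative to the start, and the other promoters held no match. The Il4i1 sequence lies inside the span given above for the gene (chr7:44816387-44840809), so it belongs to an internal start. The start at the upstream end of that span was not searched. Among 32851 RefSeq promoters of the same length, 23.9% held the IRF core, 13.6% TATAAA, 8.3% the gamma-activated site, 4.51% the NF-kB consensus and 3.44% the interferon-stimulated response element. The IRF core is thus a common match, and these letters say nothing of whether a factor binds there.

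The first question was which of these genes separated tumors that responded to anti-PD-1 from tumors that did not. Ido1, Ido2, Slc7a2, Nos2 and Il4i1 were higher in responders than in non-responders, with fold changes from 1.77 for Il4i1 to 5.21 for Ido1, and none of the 10 passed the test as lower. The arginases did not follow this pattern, since Arg1 had a mean of 94.7 ± 33.1 CPM (SD, n = 5) in responders and 136 ± 36.8 CPM (n = 4) in non-responders, a difference that did not pass the test. In edgeR's quasi-likelihood test with Benjamini-Hochberg adjustment over all genes, in which a gene was called at an adjusted p under 0.05, 5 of 10 were called, all 5 higher, where 9.9% of all genes tested were called and 5.08% were called higher. The median log2 fold change of the 10 genes was 0.97, and that of all genes was 0.006. Every responder was above every non-responder on the CPM scale for 5 of the 10 genes (Ido1, Ido2, Kynu, Il4i1 and Slc7a2), as it was for 6.8% of all genes. Without 33R 1 of the 10 was called, Ido1, while calls over all genes fell from 1612 to 793. With only the 2 compared groups in the fit 2 were called, Ido1 and Kynu, and 689 of all 15888 genes tested.

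**Figure D1:**
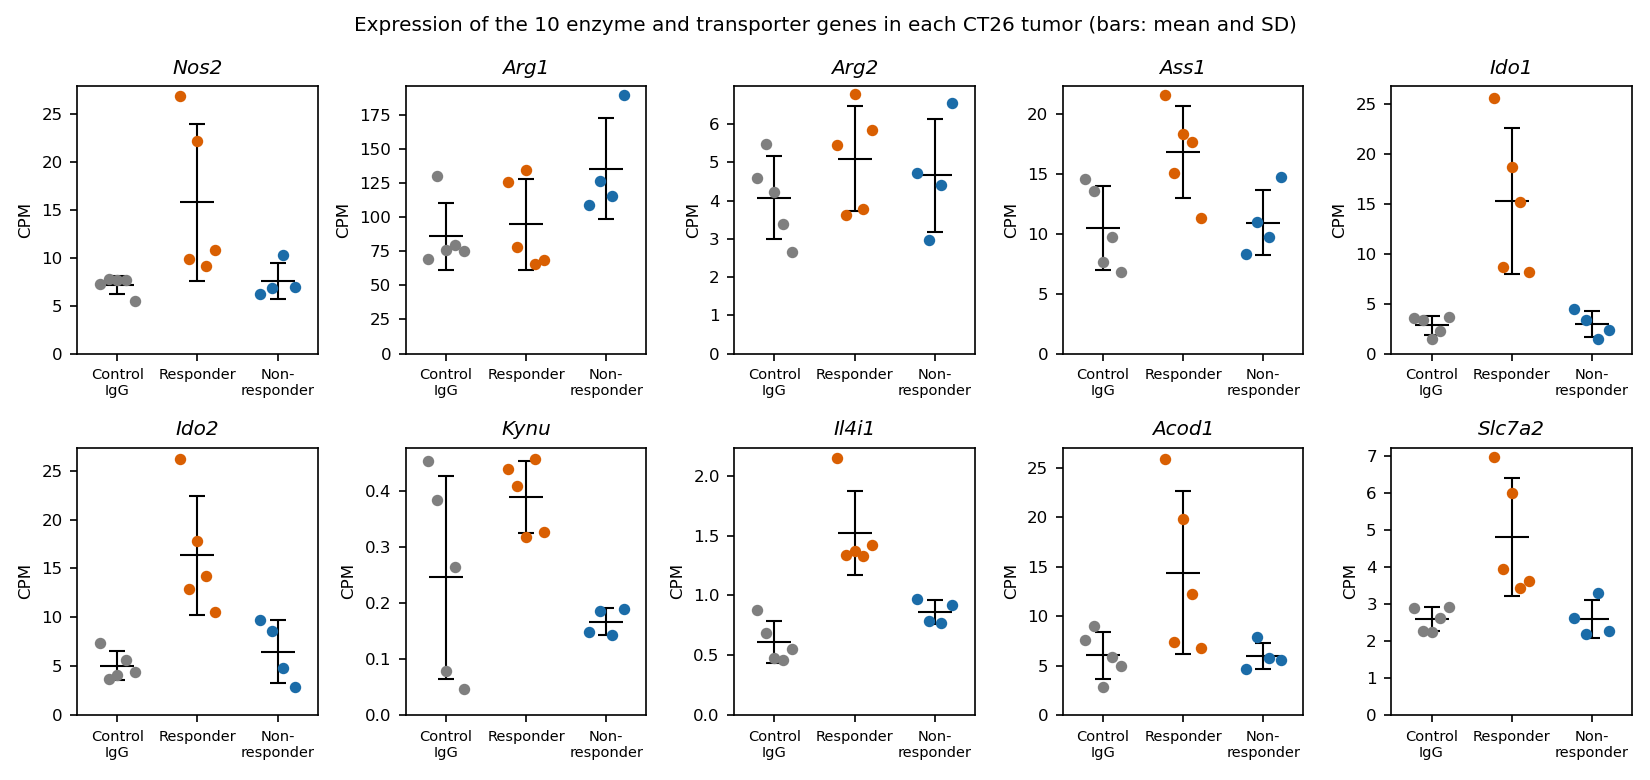
Each panel plots the CPM (linear axis from 0) of 1 gene in every tumor, with 5 control IgG tumors in gray, 5 responders in orange and 4 non-responders in blue. Horizontal bars are group means and whiskers the SD. Responders sit highest for Ido1 (mean 15.3 CPM against 2.84 and 2.92) and Ido2, whereas Arg1 and Arg2 overlap between all groups.

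**Figure D2:**
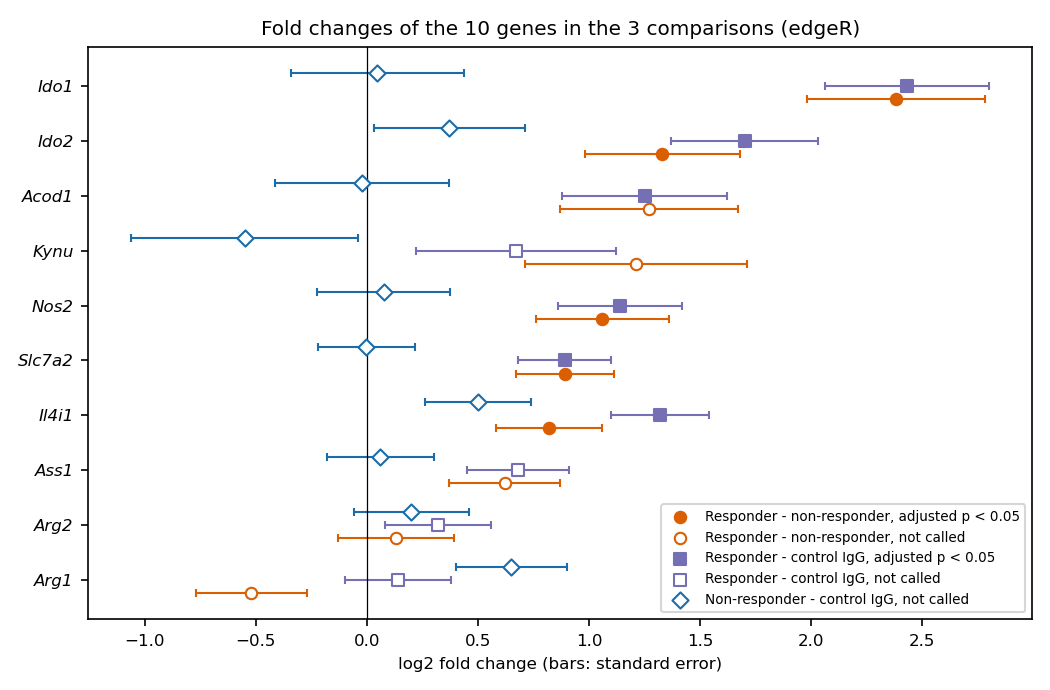
The log2 fold change of each gene (x axis, bars for the standard error) is plotted for the 3 comparisons in different colors and symbols, filled where the adjusted p was under 0.05. Ido1 is at 2.38 and 2.43 in the comparisons of responders, and every open diamond for non-responders against control IgG tumors lies between −0.55 and 0.65.

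Beginning with arginine uptake, Slc7a2 was at 6.98 CPM in 24L, 6 in 30L, 3.94 in 26R, 3.62 in 35L and 3.44 in 30R among responders. In non-responders it was at 3.29 in 33L, 2.62 in 29L, 2.28 in 33R and 2.18 in 32R, and in control IgG tumors between 2.23 and 2.93 CPM. The responders therefore lay above all other tumors, but 30R exceeded the highest non-responder by little. The log2 fold change was 0.89 (SE 0.22) against non-responders (adjusted p = 0.0264) and 0.89 (SE 0.21) against control IgG tumors (adjusted p = 0.0133). The first of these was not called without 33R (0.85, adjusted p = 0.0634), with only the compared groups in the fit (0.9, adjusted p = 0.0675) or with an offset for effective length (0.68, adjusted p = 0.0532). Of the other transporters of cationic amino acids in the arginine list, none was called, with log2 fold changes against non-responders of −0.1 for Slc7a1, −0.27 for Slc7a3, −0.19 for Slc7a6 and 0.25 for Slc7a7 (adjusted p = 0.813, 0.557, 0.158 and 0.166), and whether they differed from Slc7a2 was not tested.

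Nos2, which makes nitric oxide and citrulline from arginine, was at 26.9 CPM in 24L and 22.2 in 30L, and at 10.8 in 35L, 9.88 in 26R and 9.18 in 30R. In non-responders it was at 10.3 in 33L, 6.91 in 33R, 6.88 in 32R and 6.23 in 29L, and in control IgG tumors between 5.53 and 7.77. Thus 24L and 30L stood far above the other responders, and 33L was above 26R and 30R, so that responders overlapped with non-responders but not with control IgG tumors. Nos2 had a log2 fold change of 1.06 (SE 0.3, adjusted p = 0.0406) against non-responders and 1.14 (SE 0.28, adjusted p = 0.0173) against control IgG tumors. The call against non-responders was lost without 33R (1.03, adjusted p = 0.0911), with only the compared groups (1.07, adjusted p = 0.0974), with the length offset (0.94, adjusted p = 0.0526) and with limma-voom (0.94, adjusted p = 0.077). Of the other nitric oxide synthases, Nos3, the endothelial enzyme, had a mean of 9.43 CPM in responders and 8.4 in non-responders (adjusted p = 0.431), and Nos1, the neuronal enzyme, did not exceed a mean of 0.18 CPM in any group.

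Arg1, which splits arginine into ornithine and urea, was by far the most abundant of the 10 genes. In TPM, which divides by transcript length and allows genes to be compared, its mean was 82.2 ± 18.8 (SD, n = 5) in control IgG tumors, 99.7 ± 33.6 (n = 5) in responders and 118 ± 12.7 (n = 4) in non-responders. In CPM the responders fell into a higher pair, 135 in 30L and 126 in 24L, and 3 tumors at 78.3 (26R), 68.6 (35L) and 65.9 (30R). The non-responders were at 190 in 33R, 127 in 32R, 116 in 33L and 109 in 29L, and control IgG tumors between 69.4 and 130. All groups overlapped. The log2 fold change of responders against non-responders was −0.52 (SE 0.25, adjusted p = 0.198), and −0.3 (adjusted p = 0.539) without 33R. Arg2, the mitochondrial arginase, was between 2.65 and 6.79 CPM over all tumors, with log2 fold changes of 0.13 (SE 0.26, adjusted p = 0.787) against non-responders, which became 0.35 (adjusted p = 0.488) without 33R, and 0.32 (SE 0.24, adjusted p = 0.423) against control IgG tumors.

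The ratio of Nos2 to Arg1 in TPM was between 0.0415 and 0.067 in the 5 responders. It was between 0.0199 and 0.0347 in control IgG tumors and between 0.0121 and 0.029 in non-responders. Each responder had a higher ratio than each other tumor, including 30R, 35L and 26R, in which Arg1 was low and Nos2 was close to the highest non-responder. This ratio was computed after both genes had been seen and is given as a description, without a test.

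**Figure D3:**
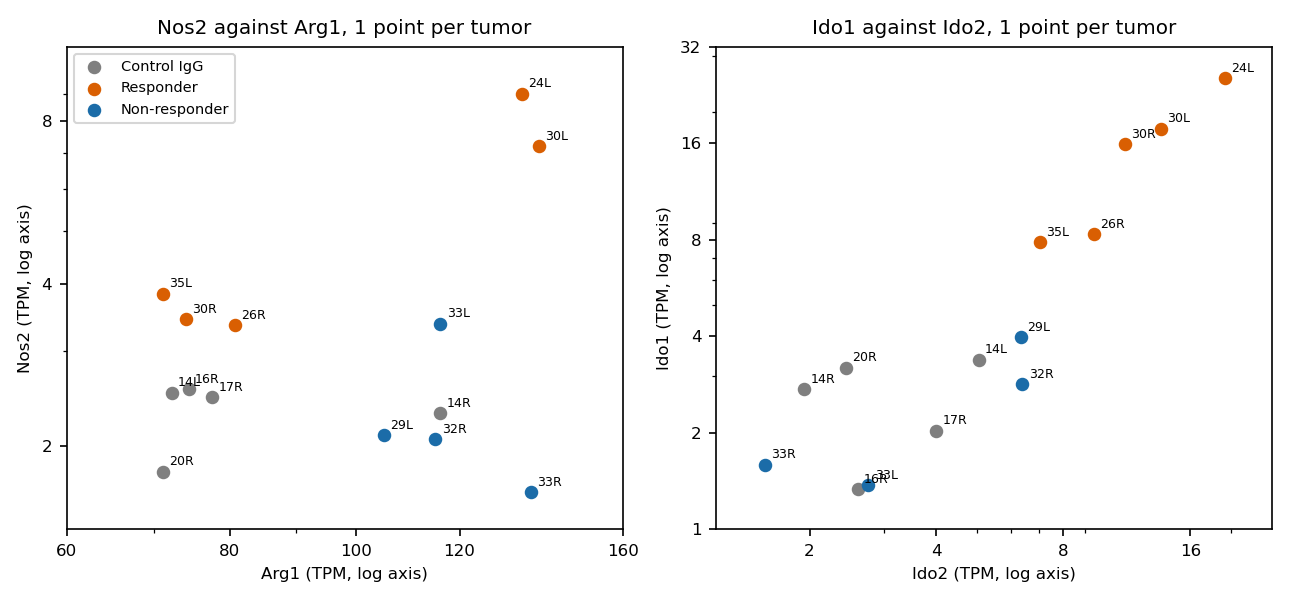
The left panel plots Nos2 against Arg1 and the right panel Ido1 against Ido2, both in TPM on log axes, with 1 labelled point per tumor in the colors of the groups. On the left, 24L and 30L are high for both genes and 33R has the lowest ratio of Nos2 to Arg1 (0.0121), and on the right the 5 responders lie at the upper end of a common band.

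Ass1, argininosuccinate synthase, joins citrulline to aspartate so that arginine can be made again. It was between 11.3 and 21.6 CPM in responders, between 8.32 and 14.7 in non-responders and between 6.79 and 14.6 in control IgG tumors. Only 35L of the responders lay within the range of the others. The log2 fold change was 0.62 (SE 0.25, adjusted p = 0.118) against non-responders and 0.68 (SE 0.23, adjusted p = 0.0654) against control IgG tumors, and neither passed the test. On the TPM scale responders and non-responders did not overlap, and limma on log2(TPM + 1) called Ass1 against non-responders (adjusted p = 0.0318), as did none of the 10 other alternatives (0.0685 to 0.148). Without 33R the log2 fold change against non-responders was 0.81 (adjusted p = 0.086). Against control IgG tumors 5 of the 11 alternatives called Ass1, with adjusted p from 0.028 on log2(TPM + 1) to 0.0791 without the filter on low counts.

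Among the tryptophan enzymes, Ido1 had the largest fold change of the 10 genes in both comparisons of responders. It was at 25.6 CPM in 24L, 18.7 in 30L, 15.2 in 30R, 8.69 in 26R and 8.15 in 35L. The non-responders were at 4.46 in 29L, 3.38 in 32R, 2.38 in 33R and 1.47 in 33L, and control IgG tumors between 1.47 and 3.63. The lowest responder was thus well above the highest of the other 9 tumors. Ido1 had a log2 fold change of 2.38 (SE 0.4, adjusted p = 0.00679) against non-responders and 2.43 (SE 0.37, adjusted p = 0.00144) against control IgG tumors. The call held with each of the 14 tumors left out in turn, with adjusted p up to 0.0244 in the first comparison, reached without 32R, and without 33R the log2 fold change was 2.31 (adjusted p = 0.0216).

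Ido2, the neighboring paralog with weaker activity on tryptophan, was at 26.2 CPM in 24L, 17.8 in 30L, 14.2 in 30R, 12.9 in 26R and 10.5 in 35L. In non-responders it was at 9.72 in 29L, 8.62 in 32R, 4.76 in 33L and 2.88 in 33R, and in control IgG tumors between 3.67 and 7.38. The 5 responders stood in the same order as for Ido1, and the non-responder 29L came within 1 CPM of the lowest responder. For Ido2 the log2 fold change was 1.33 (SE 0.35, adjusted p = 0.03) against non-responders and 1.7 (SE 0.33, adjusted p = 0.0045) against control IgG tumors. The call against non-responders was lost without 33R (1.1, adjusted p = 0.0634) and with only the compared groups in the fit (1.34, adjusted p = 0.0637). The ratio of Ido1 to Ido2 in TPM was between 0.881 and 1.43 in responders, 0.507 and 1.41 in control IgG tumors, and 0.444 and 1.01 in non-responders, and these ranges overlapped.

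Kynu, kynureninase, acts further down the pathway and was barely detected, with 2 to 23 expected counts in a tumor. Its mean was 0.39 ± 0.0643 CPM (SD, n = 5) in responders, 0.167 ± 0.0246 (n = 4) in non-responders and 0.246 ± 0.181 (n = 5) under control IgG. Responders and non-responders did not overlap, and the log2 fold change of 1.21 (SE 0.5) had an adjusted p of 0.133, which was 0.04 with only the compared groups in the fit (1.23) and 0.209 without 33R (1.29). Against control IgG tumors, of which 14L and 14R were as high as the responders, it was 0.67 (SE 0.45, adjusted p = 0.363).

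Il4i1 was also a gene of low level. It was at 2.15 CPM in 24L and between 1.33 and 1.42 in the other 4 responders, between 0.765 and 0.972 in non-responders, and between 0.458 and 0.88 in control IgG tumors. The 5 responders were above all other tumors. Il4i1 had a log2 fold change of 0.82 (SE 0.24, adjusted p = 0.0412) against non-responders and 1.32 (SE 0.22, adjusted p = 0.00232) against control IgG tumors. Against non-responders it was not called without 33R (0.87, adjusted p = 0.0734), with only the compared groups (adjusted p = 0.0596), with 1 library per mouse (0.0556), without the filter on low counts (0.0797) or on log2(TPM + 1) (0.0567). Nup62, with which it shares its strand and part of its locus, was between 74.3 and 102 CPM over all tumors.

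Acod1 makes itaconate from the Krebs cycle intermediate cis-aconitate in activated macrophages. It was at 25.9 CPM in 24L, 19.8 in 30L, 12.2 in 30R, 7.37 in 26R and 6.78 in 35L. In non-responders it was between 4.68 and 7.85 and in control IgG tumors between 2.84 and 8.99, so that 26R and 35L lay within the range of both other groups. The log2 fold change of 1.27 (SE 0.4) against non-responders did not pass the test (adjusted p = 0.056, and 0.121 without 33R), whereas that of 1.25 (SE 0.37) against control IgG tumors did (adjusted p = 0.0379). Against non-responders 3 of the 11 alternatives called Acod1, with adjusted p from 0.00955 in DESeq2 to 0.114 with 1 library per mouse. Against control IgG tumors 10 of the 11 did, with the highest adjusted p, 0.0642, in limma-voom. Whether the log2 fold changes of 1.27 and 1.25 differed from each other was not tested, and both comparisons used the same responder tumors.

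The calls against non-responders depended on single tumors. With 1 of the 14 tumors left out, Slc7a2 was called in 10 of the 14 fits, Ido2 in 8, Nos2 and Il4i1 in 6 each, and Acod1 in 3. Without any one of 24L, 30L, 32R or 33R, Ido1 was the only one of the 10 genes called. Calls over all genes also fell, from 1612 with all 14 tumors to 569, 1147, 615 and 793, in the same order. Adjusted p in those fits was 0.0545 to 0.0747 for Slc7a2, 0.0509 to 0.0806 for Ido2, 0.084 to 0.104 for Nos2 and 0.0566 to 0.109 for Il4i1. Without 30R or 33L, Nos2, Ido1 and Slc7a2 were called. Without 29L, 14L, 17R or 16R the call of Nos2 was lost (adjusted p = 0.0729, 0.0513, 0.0522 and 0.0527), and without 20R or 35L that of Il4i1 (0.0516 and 0.0589), while Acod1 was called without 16R, 26R or 35L (0.0486, 0.0383 and 0.0355).

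The second question was how anti-PD-1 responders differed from tumors given control IgG. The same responder tumors entered this comparison. Ido1, Ido2, Il4i1, Slc7a2, Nos2 and Acod1 were higher, with fold changes from 1.85 for Slc7a2 to 5.38 for Ido1, and the values of Arg1 (log2 fold change 0.14, SE 0.24, adjusted p = 0.756), Arg2, Kynu and Ass1 did not pass the test. In all, 6 of 10 were called, all higher, where 13.2% of all genes were called and 7.88% called higher, and the median log2 fold change was 1.01 against −0.011 for all genes. Ido1, Ido2, Il4i1 and Slc7a2 were called with each tumor left out in turn. Nos2 was lost without 20R (adjusted p = 0.053) or 24L (0.0506). Those fits called 1190 and 1192 of all genes, against 2147 with all tumors. Acod1 was lost without 16R, 17R, 20R, 24L, 30L or 30R (adjusted p = 0.0574 to 0.122), and Ass1 was called without 14L, 14R, 33R or 35L (0.0361, 0.0481, 0.0425 and 0.0385).

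The third comparison asked whether anti-PD-1 tumors without a response differed from control IgG tumors. The group means were close for Ido1, at 2.92 ± 1.29 (SD, n = 4) and 2.84 ± 0.941 CPM (n = 5), Nos2, at 7.57 ± 1.83 and 7.19 ± 0.946, and Acod1, at 5.96 ± 1.34 and 6.05 ± 2.38. Their log2 fold changes had standard errors of 0.3 to 0.39, so that small differences could not have been detected. Slc7a2 was at 2.59 CPM in both groups. Ido2 was at 6.49 and 5.04 CPM (log2 fold change 0.37, SE 0.34) and Il4i1 at 0.861 and 0.609 (0.5, SE 0.24), and neither was called (adjusted p = 0.931 for each in edgeR's test). Arg1 had the largest value, 0.65 (SE 0.25), with an unadjusted p of 0.0206 and an adjusted p of 0.931 in edgeR's test, and 0.43 without 33R. By edgeR 0 of 10 were called, where 0.0% of all genes were called, and 1 of the 10 and 758 of all genes had an unadjusted p under 0.05. DESeq2 called 18 of all genes, limma-voom 0, and edgeR without the filter on low counts 3, and none of these calls was among the 10.

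The order of the levels differed between groups. In mean TPM, Arg1 came first in each group, without overlap with the second gene. Ass1 was second in control IgG tumors (8.52 ± 2.96) and non-responders (8.08 ± 0.928), and in both groups it was followed by Arg2 and Ido2 (in either order), Acod1, Ido1 and Nos2 between 2.29 and 4.27, each overlapping its neighbor in rank. In responders Ido1 (15.1 ± 7.36) and Ass1 (15 ± 3.69) came next after Arg1, followed by Ido2 (12.1 ± 4.68), and these overlapped, as did Acod1 (7.79 ± 4.51), Arg2 (5.57 ± 1.38) and Nos2 (5.37 ± 2.59) after them. Slc7a2 and Il4i1 lay below and overlapped each other in each group, between 0.406 and 1.48 TPM, and Kynu came last, at 0.105 to 0.29 TPM.

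The responders were not alike. Tumor 24L was the highest of all 14 tumors for 7 of the 10 genes and among the highest 3 for 8, and 30L was among the highest 3 for 9. Tumor 35L was among the highest 3 for 3 of the genes and 26R for 1. Tumors of the same mouse also differed, since Nos2 was 1.27 higher on the log2 scale in 30L than in 30R and Arg1 1.04 higher, while Ido1 differed by 0.3 and Ass1 by 0.05. In the non-responder mouse, 33L minus 33R was 0.57 for Nos2 and −0.7 for Arg1, so that these genes moved in opposite directions between its flanks. This pair holds 33R, the tumor with the length slope of −0.232, and the part of that slope in these differences was not tested. In TPM, Arg1 was at 116 in 33L and 136 in 33R, and Nos2 at 3.37 and 1.64.

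The genes closest to each member across the 14 tumors (from 11 mice) were found by Pearson's r of log2 CPM, and are given as a description, since all points share the group differences. Ido1 was closest to Serpina3f, Slamf8 and Ly9 (r = 0.96 for each, Spearman's rho 0.84 to 0.9), and Ido2 to Xdh (r = 0.97, rho 0.98), Tgm2 and 9130208D14Rik. Acod1 was closest to the interferon-induced GTPase genes Igtp, Irgm1 and Tgtp1 (r = 0.96 for each, rho 0.85 to 0.92). Ass1, although not called, was closest to Irf9 (r = 0.97, rho 0.95), which encodes a subunit of the interferon-activated factor ISGF3, and to H2-T23 and Ifi47 (r = 0.96 for each).

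Il4i1 was closest to Ccl5, Cd7 and Ly6c1 (r = 0.95 for each), and Kynu to Cd5 (r = 0.91), BC023105 and Zcchc18. Nos2 was closest to Ifi211 (r = 0.93), Gria3 and Slpi, and Slc7a2 to Mob3c, Ltbp2 and Rasgrp1 (r = 0.91 for each). Arg1 stood elsewhere, with Klrg1 (r = 0.88), Rrp36 and Ftl1, and Arg2 with Tspan2 (r = 0.84), AC160336.1 and Gcnt1. Tumor 33R, with the length slope of −0.232, had the highest Arg1 (190 CPM). The correlations include it, and its part in them was not tested. Between members, r was 0.92 for Nos2 and Slc7a2 (rho 0.76), 0.9 for Ido1 and Ido2 (rho 0.87) and 0.86 for Ass1 and Acod1 (rho 0.83), and between −0.14 and 0.5 for Arg1 with each other member.

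In arginine metabolism around the members few genes were called. Of 37 further genes of arginine transport, polyamine, creatine, proline and citrulline metabolism and of the nitric oxide synthase cofactor, 33 were tested and 1 was called against non-responders, where 9.9% of all genes were called. This was Ddah1, which degrades methylarginine inhibitors of nitric oxide synthases, with means of 28.3 ± 3.88 CPM in responders, 18.7 ± 3.78 in non-responders and 16.6 ± 0.375 under control IgG (log2 fold changes 0.6, SE 0.13, adjusted p = 0.0149, and 0.77, SE 0.12, adjusted p = 0.00165). Besides Ddah1, 1 gene was called against control IgG tumors (13.2% of all genes), since Gatm, the first enzyme of creatine synthesis from arginine, was lower, at 67.5 ± 14.1 against 108 ± 15 CPM (log2 fold change −0.68, SE 0.15, adjusted p = 0.0106). Ddah2, with the opposite sign to Ddah1, was at 10.2 CPM in responders, 15.1 in non-responders and 14.3 under control IgG. Its log2 fold changes were −0.56 (SE 0.18, adjusted p = 0.0575) and −0.48 (SE 0.17, adjusted p = 0.0719), and neither was called. The list's median log2 fold changes were −0.1 and −0.03. Gch1, which makes the tetrahydrobiopterin that Nos2 needs, was at 65.9 CPM in responders and 85.5 in non-responders (adjusted p = 0.0548), and Odc1, which takes ornithine to polyamines, at 734 and 731.

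Of 26 further genes of tryptophan metabolism and of the kynurenine-binding aryl hydrocarbon receptor, 22 were tested, 0 were called against non-responders by edgeR (9.9% of all genes), and the median log2 fold change was 0.1. Kmo, kynurenine monooxygenase, was at 2.26 CPM in responders and 1.39 in non-responders (log2 fold change 0.71, adjusted p = 0.0634). In responders against control IgG tumors 3 were called, where 13.2% of all genes were called. Cyp1b1, a classical target of the aryl hydrocarbon receptor, was higher by 1.03 (SE 0.31, adjusted p = 0.0426) on the log2 scale and the kynurenic acid receptor Gpr35 by 0.66 (SE 0.21, adjusted p = 0.0471), while Tiparp, another target of the same receptor, was lower, at −0.46 (SE 0.14, adjusted p = 0.0423). Cyp1a1 did not exceed a mean of 0.434 CPM in any group.

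Of 21 genes of the Krebs cycle, itaconate breakdown and itaconate's known targets, all 21 were tested and 3 were called against non-responders (9.9% of all genes). Clybl, which takes part in the breakdown of itaconate's product citramalyl-CoA, was lower in responders, at 6.05 ± 0.916 against 9.22 ± 2.38 CPM (log2 fold change −0.6, SE 0.16, adjusted p = 0.0308), and so was Suclg2, a subunit of succinyl-CoA ligase (−0.35, SE 0.1, adjusted p = 0.0468). The mitochondrial citrate carrier Slc25a1 was higher (0.3, SE 0.06, adjusted p = 0.0155). The comparison with control IgG tumors, in which 13.2% of all genes were called, called these 3 and Keap1 (0.28, SE 0.07, adjusted p = 0.0204), whose product itaconate alkylates. The list's medians were 0.03 and −0.07.

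The inducers of the members were examined last. Of 25 genes of interferon-gamma and NF-kB signaling, 23 were tested and 6 were called against non-responders, all higher, with a median log2 fold change of 0.27. Of all genes, 9.9% were called and 5.08% called higher. Ifng itself had a mean of 1.59 ± 0.673 CPM in responders, against 0.45 ± 0.0909 in non-responders and 0.463 ± 0.214 under control IgG (log2 fold changes 1.81, SE 0.38, adjusted p = 0.0139, and 1.77, SE 0.35, adjusted p = 0.00515). Its receptor gene Ifngr1, the kinase gene Jak1, the transcription factor gene Irf1, and Tlr9, a sensor of DNA, were among the others (log2 fold changes 0.33, 0.38, 0.91 and 1.24). Against control IgG tumors 6 were called (13.2% of all genes), with Ifng, Ifngr1, Irf1, Irf8 and Tlr9 higher and Il1r1 lower (−0.31, SE 0.08, adjusted p = 0.0242), and a median of 0.14.

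Of 27 genes of STAT6, STAT3 and hypoxia signaling, which are known for inducing Arg1 and Il4i1, 24 were tested. Those called against non-responders were 2 (9.9% of all genes), the IL-4 receptor gene Il4ra (0.39, SE 0.08, adjusted p = 0.0122) and the IL-10 receptor gene Il10ra (0.74, SE 0.13, adjusted p = 0.00691), and the median was 0.33. Against control IgG tumors 6 were called (13.2% of all genes), with Il4ra, Il13ra1, Il10 and Il10ra higher, Csf1 lower (−0.39, SE 0.1, adjusted p = 0.0191) and Ptgs2, the inducible cyclooxygenase, lower (−1.12, SE 0.26, adjusted p = 0.013), and the median was 0.21. The cytokine genes Il4 and Il13 themselves did not pass the filter on low counts. By edgeR 0 genes of these 5 lists were called in non-responders against control IgG tumors, where 0.0% of all genes were called.

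**Figure D4:**
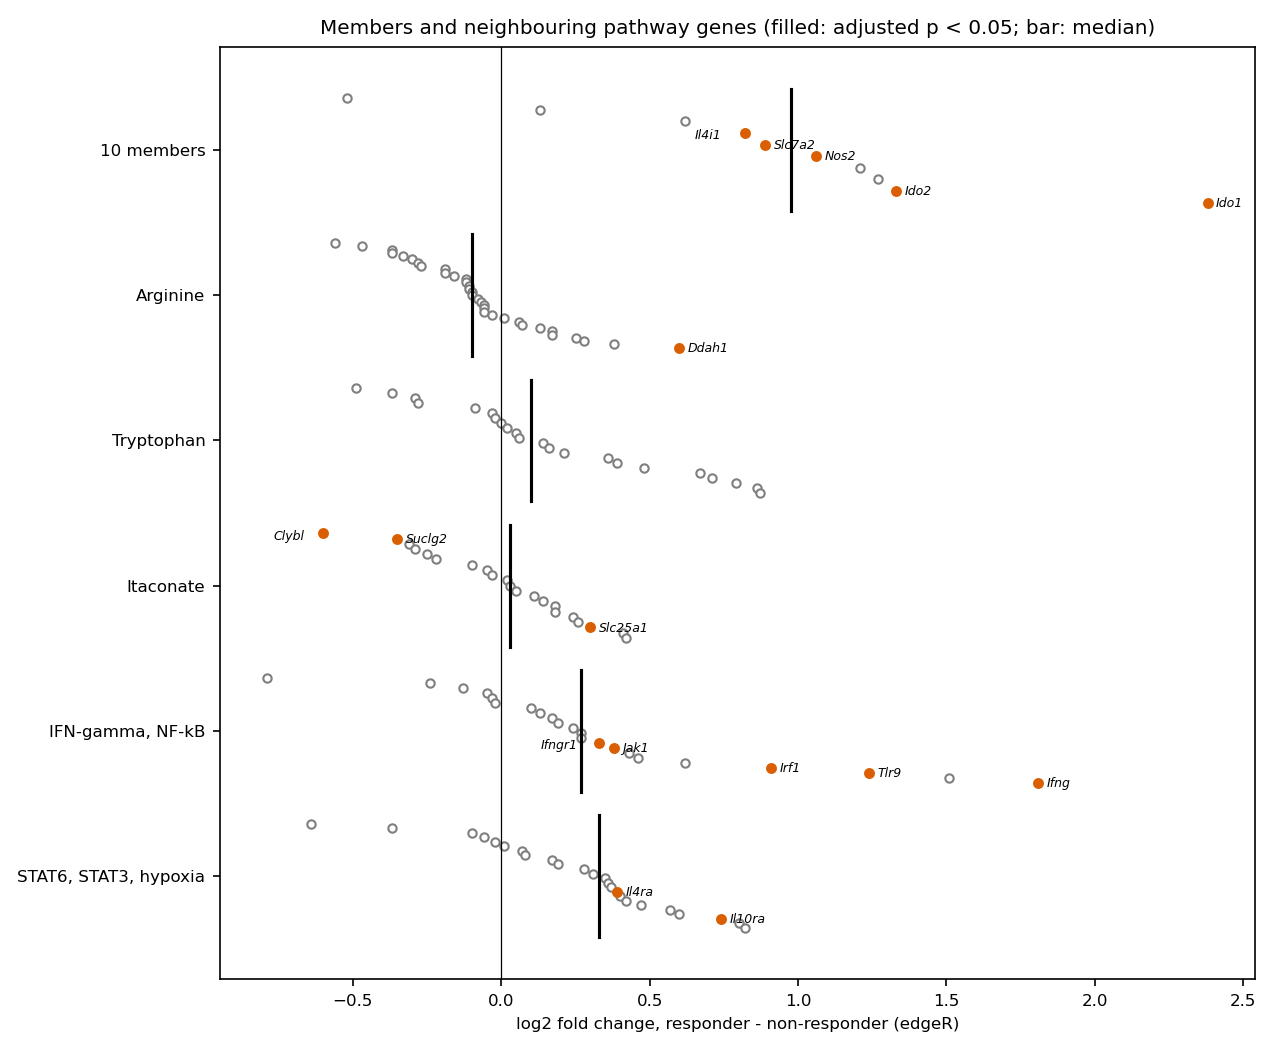
Each row plots the log2 fold change of responders against non-responders (x axis) for the tested genes of 1 list (1 gene is not shown), sorted by value within the row, with named orange points for genes with an adjusted p under 0.05 and a black bar at the median of the whole list. The 10 members have a median of 0.97, whereas the medians of the other lists lie between −0.1 and 0.33.

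Marker genes of several immune cells moved with the members. Over all genes, 5.08% were called higher against non-responders and 7.88% against control IgG tumors. The summed CPM of 8 T cell markers was 40.7 to 81.3 in responders, 23.2 to 28.6 in non-responders and 18 to 41.8 under control IgG, and 7 of 8 were called higher against non-responders and 8 of 8 against control IgG tumors. For type 1 dendritic cells, which are known to express Ido1, the sum of 8 markers was 258 to 353 in responders, 187 to 235 in non-responders and 199 to 224 under control IgG, with 5 of 8 and 7 of 8 called higher. The 8 monocyte markers summed to 360 to 537, 264 to 414 and 184 to 335, with 1 of 8 called higher against non-responders and 4 of 8 against control IgG tumors. The 10 macrophage markers summed to 1911 to 2343 in responders, 1540 to 1908 in non-responders and 1707 to 1976 under control IgG, and 1 of 10 was called higher in each comparison of responders, Adgre1 against non-responders (log2 fold change 0.51, SE 0.1, adjusted p = 0.0132) and against control IgG tumors (0.35, SE 0.1, adjusted p = 0.0278).

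The 10 neutrophil markers summed to 58.7 to 138 in responders, against 60.1 to 165 in non-responders, with 1 of 9 tested called, and the 8 fibroblast markers to 2827 to 4710 and 2287 to 4252, also with 1 called. In this comparison 9.9% of all genes were called. Among responders 24L, the tumor that was also highest for most members, had the highest sum for T cells, type 1 dendritic cells, monocytes, neutrophils, B cells and fibroblasts. For macrophages (2343), mature dendritic cells, endothelium, epidermis and skeletal muscle the highest responder was 30R, and for erythroid genes 35L. The lowest macrophage sum among responders was in 30L (1911), and the lowest endothelial sum in 24L (252). The 6 erythroid genes moved the other way, from 376 to 2067 in non-responders to 59.3 to 283 in responders, with 5 of 5 tested called lower (785 of all 16287 genes). The 8 mature dendritic cell markers (169 to 187 and 166 to 225, 3 of 7 called higher), 8 B cell markers (5.93 to 9.25 and 2.66 to 5.51, 1 of 4), 8 endothelial (252 to 314 and 201 to 262, 0 of 8 by edgeR), 8 epidermal (10.9 to 993 and 138 to 300, 0 of 8) and 8 skeletal muscle markers (29.8 to 495 and 106 to 859, 0 of 8) are given in the same order. The sums follow their most abundant genes. Most of the mature dendritic cell sum was Fscn1, with means of 126 CPM in responders and 149 in non-responders. The 3 called were Ccr7, Ccl22 and Ccl17, at 4.8, 2.85 and 0.483 CPM in responders against 2.4, 1.25 and 0.147. In the type 1 dendritic cell sum, Cadm1 and Irf8 had means of 134 and 76.3 CPM in responders, and Xcr1 and Clec9a 6 and 3.62. No list had a marker at 0 in all tumors, and the part of any of these cell types in the members' values was not tested.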

How the data were processed

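RNA was extracted from 14 whole CT26 tumors and sequenced as oligo(dT)-selected libraries. Group and tumor name were taken from the labels, and shared mice were read from the tumor numbers. Per the labels the authors used STAR, RSEM and mm10, with defaults according to the methods for cultured lines. In the files deposited, expected counts estimate the fragments of each gene and carry no normalization. TPM, also deposited, divides them by effective length and sets each tumor to 1 total. A deposited FPKM column was left unused.

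After rounding, the expected counts went into edgeR 4.0.16 under R 4.3.3 (TMM, filterByExpr, quasi-likelihood test, Benjamini-Hochberg adjustment over 16287 genes), with all 14 tumors in 1 fit and no covariate. The prior count of log2 CPM was 2, and 1 was added to TPM before logs. Nothing in the sources says that tumors of a group came from separate experiments. No pair of tumors of the same group agreed within sampling noise (lowest chi-square per gene 20.5), and pairs across groups were not compared. The smallest share taken as detectable, 3 counts, was at most 9.03e-06% of a total, which covers counting error only. Alternatives used DESeq2 1.42.0, limma 3.58.1, mouse as a random effect or summed tumors per mouse, other scalings and filters, only the compared groups, an offset for effective length (loess span 0.5), and each tumor left out. The tests were tried on simulated counts. Figures were drawn with matplotlib 3.10.9.

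The 10 genes, the pathway lists and the marker lists were chosen with earlier results of these data known. Of each pathway list the genes named are those called in any comparison, at most 8 by the smallest p, and for each member the 3 genes with the highest Pearson's r. Other genes named from the pathway lists (Slc7a1, Slc7a3, Slc7a6, Slc7a7, Nos1, Nos3, Ddah2, Gch1, Odc1, Kmo, Cyp1a1) were chosen after their values were seen. So were those named from the dendritic cell marker lists. 1 gene of the lists is not reported here by name or value.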

Additional observations from a re-analysis of the deposited data

Results flagged for a closer look

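Within groups, single tumors lay far from the rest in 4 of the 30 sets of values tested (10 genes in 3 groups), by the gap to the nearest tumor relative to the group's range. Chance flags about 1 in 20 such sets. In control IgG tumors Nos2 was low in 20R, at 5.53 CPM against 7.27 to 7.77 in the other 4, and Arg1 was high in 14R, at 130 CPM against 69.4 to 79.4. In non-responders Nos2 was high in 33L, at 10.3 CPM against 6.23 to 6.91. In responders Il4i1 was high in 24L, at 2.15 CPM against 1.33 to 1.42.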

How the results depend on the processing

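The number of members called against non-responders was 5. It was 2 with only the compared groups in the fit (Ido1 and Kynu) and 3 with the length offset (Ido1, Ido2 and Il4i1), 4 to 6 in the 9 other alternatives, and 1 to 6 with 1 tumor left out. Against control IgG tumors it was 6, with 5 to 7 in the alternatives and 4 to 7 with 1 tumor left out, and in non-responders against control IgG tumors it was 0 throughout. Over all genes, calls against non-responders were 1612 with all tumors, 689 with only the compared groups and 1514 with the length offset. With 1 tumor left out they were 569 to 1978. Calls of responders against control IgG tumors were 2147 over all genes, and 1190 to 3385 with 1 tumor left out. Fold changes near 0 turned sign. In non-responders against control IgG tumors, log2 fold changes became −0.034 for Nos2, −0.018 for Ass1 and −0.065 for Ido1 on log2(TPM + 1), −0.001 for Ass1 and 0.066 for Slc7a2 with the length offset, −0.11 for Ido1 and 0.0044 for Slc7a2 with mouse as a random effect, 0.0025 for Slc7a2 with upper quartile scaling, and, for Acod1, 0.054 with limma-voom and 0.13 with 1 library per mouse. With 1 tumor left out they ranged from −0.12 to 0.16 for Nos2, −0.026 to 0.36 for Arg2, −0.13 to 0.21 for Ass1, −0.23 to 0.26 for Ido1, −0.2 to 0.16 for Acod1 and −0.14 to 0.074 for Slc7a2. Arg2 against non-responders ranged from −0.039 to 0.35 and Arg1 in responders against control IgG tumors from −0.027 to 0.34. The cause was not tested. No paired analysis was possible because the groups share no mouse and no replicate number. Kynu had at most 23 counts in a tumor.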
